A study of Mus musculus with 20 samples.

Results

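All 10 kidney tumors of a CRISPR mouse model were set against the normal kidneys that carried the most Lcn2, to separate what tumors had from what injured kidney tissue had. The kidneys were chosen by the measured level of Lcn2: a normal kidney entered this comparison when its Lcn2 exceeded 1000 CPM, where CPM is the count of a gene per 1000000 counts of its library. Of 10 normal kidneys, 3 passed this limit, so 13 of the 20 libraries of the series formed the comparison and the other 7 normal kidneys served as the baseline. The mice were C57BL/6 animals of the genotype LSL-Cas9/+; Pax8 Cre/+, in which Cre expressed from the Pax8 promoter switches on Cas9 in Pax8-expressing cells, largely the epithelium of the renal tubule. Their kidneys were injected with a Cre-less adeno-associated virus (AAV) that carries sgRNAs against Keap1, Pbrm1, Vhl and Tsc1. Each of the 10 tumors came from a separate mouse, and the normal kidney regions came from the same mice. The normal kidneys therefore shared the alleles of the tumor-bearing animals, and no kidney of an uninjected mouse was among them. The labels say nothing of injury, age or distance from the tumor, and they call all 10 kidney samples normal. The same numbers run through both groups, but no label says that a number marks a mouse.

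Lcn2 (Ngal, an iron-siderophore binding protein) and Havcr1 (Kim-1, a receptor for apoptotic cells) are hardly transcribed by healthy tubules and are switched on by tubule cells after ischemic, toxic or obstructive injury. Injured proximal tubule cells at the same time lower their transporters and turn on genes such as Sox9, Krt20, Spp1 and Clu. Loss of Vhl stabilises the HIF transcription factors, which drive glycolysis and the response to low oxygen. Loss of Keap1 releases Nrf2, which drives glutathione and NADPH metabolism, and loss of Tsc1 activates mTORC1, a regulator of growth and of lysosomes. The comparison asks which of these programs are absent from, shared with or opposite in kidney tissue that carries injury markers and no tumor label.

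Promoter sequences of target genes are shown first, since most members of the HIF and interferon groups were higher in tumors and lay within 2-fold of each other in the kidney sets. Among the genes printed, Car9, Oas1a and Ifit3 were at least 2-fold lower and Hk2 at least 2-fold higher in the high-Lcn2 kidneys than in the others. The sequences were read from the 250 bases before the annotated starts of RefSeq genes (GRCm38.p6), and each line runs 5′ to 3′ on the strand of the gene. The core of the hypoxia response element, ACGTG, was searched on both strands and was present in 19 of 33 HIF targets with a promoter in that table (57.6%), against 4998 of 27025 genes (18.5%). The capitals mark that core, read as CACGT where it lies in the opposite orientation.
Car9, chr4:43507000-43507020, plus strand: ttccgatgCACGTacagcccg
Slc16a3, chr11:120949032-120949052, plus strand: cagcggtgACGTGcgcggggg
Ldha, chr7:46845652-46845672, plus strand: cgcagcacACGTGgagccact
Hk2, chr6:82774494-82774514, minus strand: agcacatcCACGTcactgtcc
Ankrd37, chr8:46000079-46000099, minus strand: ccagcagtACGTGcctagctc
Egln3, chr12:54204091-54204111, minus strand: catctcagACGTGagatccag
The cores lie 18 (Car9), 27 (Slc16a3), 144 (Ldha), 52 (Hk2), 241 (Ankrd37) and 229 (Egln3) bases before the start of the gene. A match is a description of the letters and not a site of binding.

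For the interferon response the core searched on both strands was that of the interferon-stimulated response element, GAAA followed after any 2 bases by GAAA. It was present in 8 of 13 members with a promoter in the table (61.5%) and in 936 of all 27025 genes (3.46%). The antioxidant response element of Nrf2 (TGACNNNGC) was present in 6 of 26 members (23.1%) and in 3112 genes (11.5%). The capitals below mark the interferon core in 3 members described further on.
Bst2, chr8:71537585-71537610, minus strand: cattccagGAAAATGAAActgaaagg
Oas1a, chr5:120907528-120907553, minus strand: cttctcggGAAATGGAAActgaaaat
Ifit3, chr19:34583365-34583390, plus strand: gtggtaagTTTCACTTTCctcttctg
These cores lie 130 (Bst2), 20 (Oas1a) and 156 (Ifit3) bases before the start, and that of Ifit3 is in the opposite orientation.

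Library totals were 18447394 to 24902973 counts in tumors, 18928491 to 26679704 in the high-Lcn2 kidneys and 14737516 to 21297452 in the other normal kidneys. A library with 3 counts of a gene stood at 0.112 to 0.204 CPM, which is the floor under which no level can be read. Mitochondrially encoded genes took 2.09 to 4.93% of the counts in tumors, 7.12 to 8.8% in the high-Lcn2 kidneys and 8.1 to 12.2% in the others. Tumor 7, normal kidney 7 and normal kidney 9 stood apart from their groups, tumor 7 by matrix and neutrophil genes, normal kidney 7 by cell division genes and normal kidney 9 by its scaling factor (0.754). Xist, the marker of female libraries, exceeded 100 CPM in 5 tumors, 1 high-Lcn2 kidney and 4 other kidneys, so both sexes were present in every set. Normal kidney 5 was the female high-Lcn2 kidney.

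The targeted genes were read before the other results, since guides that cut the coding sequence need not lower the transcript. Vhl was 11.7, 17.2 and 25.1 CPM (lowest, median, highest) in tumors and 30, 22.2 and 30.4 CPM in normal kidneys 5, 7 and 8. Its log2 difference was -0.50 ± 0.168 (SE), with an adjusted p of 0.0294 (edgeR, quasi-likelihood test, adjusted over all genes by Benjamini-Hochberg). It missed the limit without normal kidney 5 (adjusted p 0.143) or 8 (adjusted p 0.127). Keap1 was 61.7, 77.1 and 85.4 CPM in tumors, above 53.2, 39.3 and 53.3 CPM in the high-Lcn2 kidneys, a log2 difference of 0.80 ± 0.134 (adjusted p 0.000134). Pbrm1 (-0.54, adjusted p 0.125) and Tsc1 (-0.65, adjusted p 0.0656) missed the limit in the same test and passed it without normal kidney 9 (adjusted p 0.0117 and 0.00839), each under 2-fold. None of the 4 transcripts differed by 2-fold, and their levels do not tell the groups apart as edited or unedited.

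The injury label was checked against its markers, with values and without a test, since Lcn2 chose the kidneys. Lcn2 (chr2:32384633-32388252, ENSMUSG00000026822) was 2700, 3390 and 1860 CPM in normal kidneys 5, 7 and 8. The next normal kidney, just outside the limit, was kidney 9 at 174 CPM, and the 7 others had 11.1, 27.6 and 174 CPM as lowest, median and highest. Tumors had 0.442, 2.84 and 182 CPM, with tumor 7 the highest, so the median tumor lay below every normal kidney. Tumors 7, 8, 9 and 5, numbered as the normal kidneys with the most Lcn2, had 182, 35.1, 18.5 and 16.2 CPM. These lay above the lowest of the 7 others, and the remaining tumors had at most 3.41 CPM. Havcr1 (chr11:46735080-46779578, ENSMUSG00000040405) chose the same 3 kidneys. It was 174, 1380 and 135 CPM there and 3.6, 9.93 and 31.4 CPM in the other kidneys, and it was also present in every tumor at 95.5, 213 and 554 CPM. The 2 markers thus parted in tumors, whose Havcr1 range took in kidneys 5 and 8 while their median Lcn2 was near 0.

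Of the 35 genes of the tubule injury list, Lcn2 included, 30 were at least 2-fold higher in the high-Lcn2 kidneys than in the other kidneys (8.81% of all genes tested), with a median log2 difference of 2.02. The tumors had a median log2 difference of 2.41 to the other kidneys and of -0.22 to the high-Lcn2 kidneys over the same genes. Sox9, a transcription factor of regenerating tubule cells, was 103, 70.3 and 93.1 CPM in kidneys 5, 7 and 8 and 9.92, 36.4 and 138 CPM in tumors, against 2.31, 4.1 and 7.1 CPM in the other kidneys. Krt20, a keratin of injured tubules, was 252, 343 and 34.4 CPM in the high-Lcn2 kidneys and 26.8, 80.6 and 838 CPM in tumors, the highest being tumor 7. Spp1 (osteopontin) was 36100, 45500 and 27700 CPM in the high-Lcn2 kidneys, 8800, 13300 and 33000 CPM in tumors and 2290, 2640 and 4620 CPM in the others. These 3 genes were raised in both tissues.

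A second set of injury genes was highest in the high-Lcn2 kidneys. Clu (clusterin, a chaperone secreted by injured tubules) was 2740, 4960 and 1220 CPM there, 228, 396 and 765 CPM in the other kidneys and 9.52, 42.5 and 264 CPM in tumors. Every tumor thus lay below every high-Lcn2 kidney and below the median of the other kidneys. The fibrinogen chain gene Fga was 3500, 1130 and 3820 CPM in the high-Lcn2 kidneys, 29, 136 and 592 CPM in tumors and 93.4, 128 and 230 CPM in the others, and the medians of Fgb and Fgg had the same order. Fgg reached 569 CPM in tumors and at most 161 CPM in the others. Another set was highest in tumors. Cd44, a hyaluronan receptor, was 54.5, 61.9 and 202 CPM in tumors, 8.88, 31.9 and 5.51 CPM in kidneys 5, 7 and 8 and 3.53, 5.52 and 8.42 CPM in the others. Vcam1, an adhesion molecule of failed tubule repair, was 62.4, 99.3 and 131 CPM in tumors, 22.8, 35.4 and 27.7 CPM in the high-Lcn2 kidneys and 14.5, 26.4 and 33.7 CPM in the others. Vcam1 thus did not set the high-Lcn2 kidneys apart from the other kidneys. Ptgds, a prostaglandin D synthase, reached 282, 439 and 1120 CPM in tumors and only 3.59, 1.99 and 3.35 CPM in the high-Lcn2 kidneys, below the 6.56 to 44.8 CPM of the others.

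**Figure D1:**
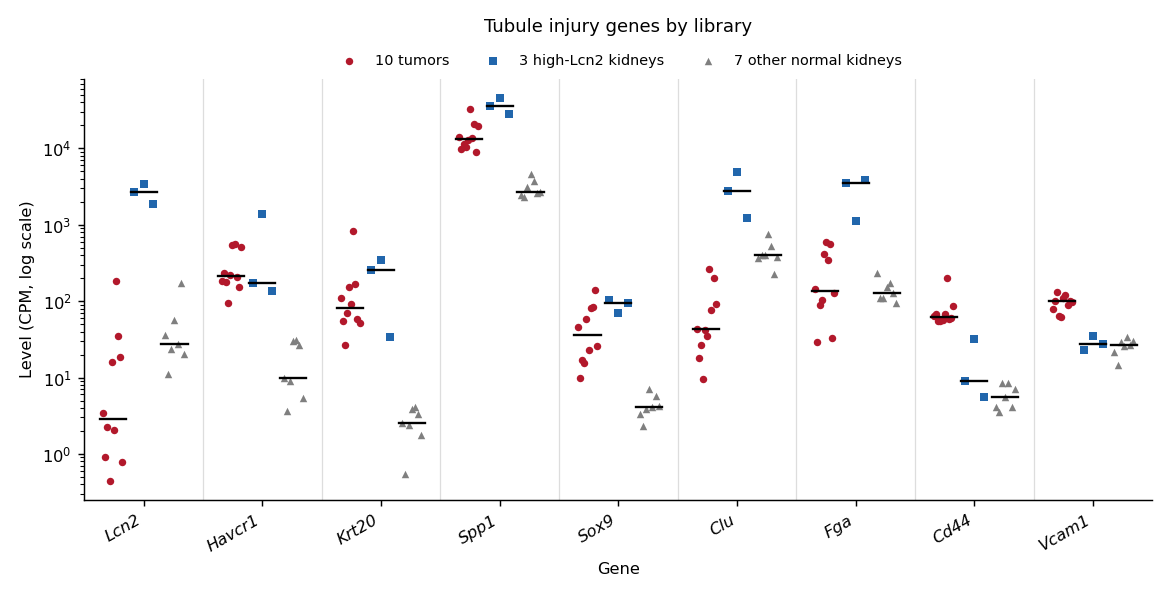
Level of 9 tubule injury genes in each library (CPM, log scale), with 1 point per library for 10 tumors, 3 high-Lcn2 kidneys and 7 other normal kidneys and a bar at each median; levels are to be compared within a gene. Lcn2, Clu and Fga are highest in the high-Lcn2 kidneys, Havcr1, Krt20, Spp1 and Sox9 are raised in both tumors and high-Lcn2 kidneys, and Cd44 and Vcam1 are highest in tumors.

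Tumors differed widely from the high-Lcn2 kidneys. Of 17518 genes tested, 1664 (9.5%) were higher and 1807 (10.3%) lower in tumors by over 2-fold at an adjusted p under 0.05 in edgeR's quasi-likelihood test, together 3471 genes or 19.8%. Without the fold limit 2659 genes were higher and 2525 lower. The counts changed with single libraries: without normal kidney 5 they were 1274 and 1444, and without tumor 7 they were 1862 and 2454. Against the other normal kidneys 2357 genes (13.5%) were higher and 2888 (16.5%) lower. Every tumor lay above every high-Lcn2 kidney in 1366 genes (7.8%) and below in 1879 (10.7%). As throughout, bulk tissue does not tell fewer cells of a type from less RNA per cell.

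Among the 12 largest rises over the high-Lcn2 kidneys were genes hardly read in any kidney. Nlrp10, a NOD-like receptor without the leucine-rich repeats, was 172, 347 and 516 CPM in tumors and 1.32, 0.75 and 1.49 CPM in kidneys 5, 7 and 8, a log2 difference of 8.42 ± 0.916 (adjusted p 7.89e-07). Mylk2, the myosin light chain kinase of skeletal muscle, was 23.5, 35.1 and 97.3 CPM in tumors and had 3 counts in the high-Lcn2 kidneys together, a ratio of 1020 (95% Poisson interval 349 to 4950, counting error only). Gstm3, a mu-class glutathione transferase, reached 28.6, 184 and 311 CPM in tumors and at most 0.423 CPM in those kidneys. Aqp8, a water and peroxide channel, was 18.8, 419 and 633 CPM in tumors, the lowest being tumor 7, and at most 1.95 CPM in the high-Lcn2 kidneys. The calcium-activated chloride channel regulators Clca4b and Clca4a had no count in the high-Lcn2 kidneys, and the mean over tumors was at least 1090-fold and 54-fold higher (floor of 3 counts per library). In tumor 6 Clca4b was at 0.147 CPM, no more than that floor. Nxf7 (ratio 840, interval 151 to 33200), Slc7a15, Nkx6-2, Serpinb9b and 2610528A11Rik were also among them. Gstm3, Serpinb9b, Nxf7 and the Clca4 genes have close paralogs, so their counts are uncertain.

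The 12 largest falls included genes of the distal nephron and of the proximal tubule. Calb1, the calcium buffer of the distal tubule, was 212, 69.3 and 139 CPM in the high-Lcn2 kidneys and at most 0.105 CPM in any tumor. Umod (uromodulin of the thick ascending limb) was 4570, 3510 and 7300 CPM there and 0, 0.676 and 6.02 CPM in tumors. Klk1, the kallikrein of the connecting tubule, was 1100, 743 and 489 CPM there and 0.0402, 0.447 and 2.31 CPM in tumors. Gpx6, Spink8, Gp2 and Lpo had no count in any tumor, and the high-Lcn2 kidneys were at least 141-fold, 77.5-fold, 42.9-fold and 38.3-fold higher. Aqp2, Ugt3a1, Slc14a2, Slc22a13 and Kap were the other 5. Kap, an androgen-dependent gene of the proximal tubule, was 2.17 CPM in the female kidney 5 and 2180 and 478 CPM in kidneys 7 and 8, so its difference mixes with sex.

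Each tumor change was then placed by what the high-Lcn2 kidneys did. A gene that tumors raised or lowered against the other 7 kidneys was called shared where the high-Lcn2 kidneys had moved at least 2-fold the same way, opposite where they had moved at least 2-fold the other way, and absent where they had moved less than 2-fold and tumors also differed from them in the same direction. Among all genes tested, the high-Lcn2 kidneys were at least 2-fold above the other kidneys in 1544 (8.81%) and at least 2-fold below in 2261 (12.9%), by size alone. Of 2357 tumor rises, 846 (35.9%) were shared, 828 (35.1%) absent, 133 (5.64%) opposite and 550 (23.3%) in between. Of 2888 tumor falls, 1242 (43%) were shared, 994 (34.4%) absent, 66 (2.29%) opposite and 586 (20.3%) in between. Both differences are taken from the same 7 kidneys, so an unusual level there moves tumors and high-Lcn2 kidneys alike, and the counts describe the classes without a test. Without normal kidney 7 the shared rises numbered 622, the absent rises 854 and the opposite rises 230, and without tumor 7 the opposite falls numbered 109.

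**Figure D2:**
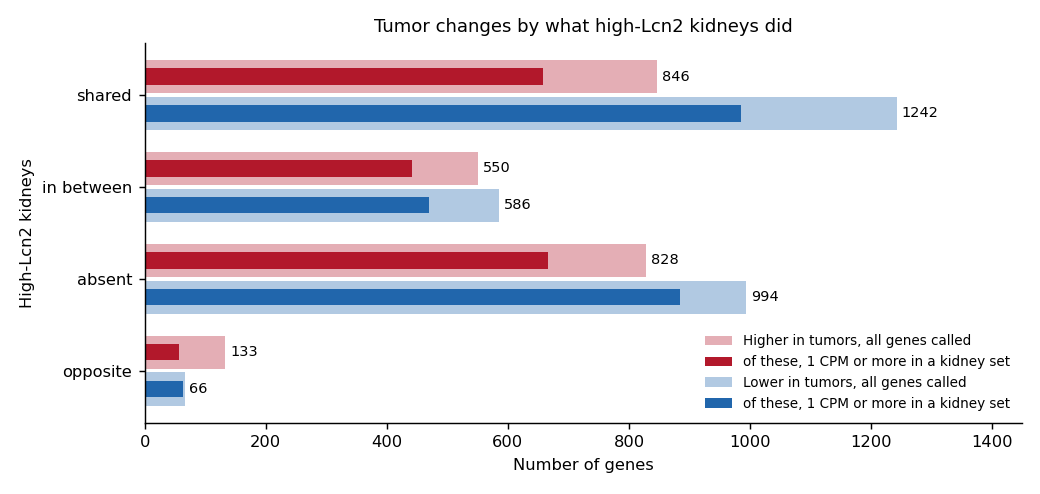
Number of genes that were higher (red) or lower (blue) in tumors than in the other 7 normal kidneys, split by what the 3 high-Lcn2 kidneys did (rows); pale bars count all genes and dark bars those with at least 1 CPM in a kidney set. Shared and absent rises are close in number (846 and 828 of all genes, 658 and 667 of those at 1 CPM or more), shared falls outnumber absent ones (1242 and 994), and opposite changes are the fewest (133 and 66).

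The largest shared rises were genes near 0 in the other kidneys. Popdc3, a popeye domain membrane protein, was 21.7, 108 and 132 CPM in tumors and 14.2 CPM in normal kidney 7, but 0.264 and 0.257 CPM in kidneys 5 and 8. Areg (amphiregulin, an EGF receptor ligand released by injured tubules) was 7.71, 17.3 and 49.5 CPM in tumors and 0.951, 4.31 and 0.309 CPM in kidneys 5, 7 and 8, against at most 0.118 CPM in the others. Cited1, a transcriptional co-regulator of nephron progenitors, was 36.9, 69.5 and 117 CPM in tumors, 1.48, 0.825 and 1.13 CPM in the high-Lcn2 kidneys and at most 0.55 CPM in the others. Shared in direction was thus not shared in size: Popdc3, Areg and Cited1 were each also higher in tumors than in the high-Lcn2 kidneys (log2 4.46, 3.62 and 6.07, adjusted p 0.00116, 0.000597 and 3.08e-07, edgeR). Eef1a2 and Mmp27 had the same order by their means, but their levels in both kidney sets were near the floor and overlapped. Eef1a2 was 0.106, 1.01 and 0 CPM in kidneys 5, 7 and 8 and at most 0.136 CPM in the others, so kidney 7 decided its class. Mmp27 was 0.0528, 0.412 and 0.154 CPM there and at most 0.306 CPM in the others. Cxcl3 was decided by tumor 7 (165 CPM, against a median of 0.502 CPM over all tumors), and without it the log2 difference to the high-Lcn2 kidneys was -0.15.

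Absent rises, those that tumors had and the high-Lcn2 kidneys lacked, were led by Serpinb9b, 2610528A11Rik, Nlrp10, H2-Q1, Ms4a8a and Ugt2b35. Ugt2b35, a UDP-glucuronosyltransferase, was 235, 442 and 891 CPM in tumors, 7.08, 1.2 and 1.24 CPM in kidneys 5, 7 and 8 and 0.141, 1.74 and 5.56 CPM in the others. H2-Q1, a class I gene of the MHC with many close copies, was 4.21, 31.7 and 73.6 CPM in tumors and at most 0.328 CPM in any kidney.

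Opposite changes fell into 2 kinds. Of the 133 opposite rises, 57 averaged 1 CPM or more in a kidney set, so most, among them the 6 with the largest rise (Clca4b, Mylk2, Gstm3, Clca4a, Nxf7 and Nkx6-2), compared kidneys that were both near 0. For Clca4b and Nkx6-2 the highest of the other kidneys was normal kidney 6. The opposite falls were read well in kidneys, 63 of 66 at 1 CPM or more. Muc1, the membrane mucin of the distal nephron, was 94.2, 77.5 and 62.8 CPM in the high-Lcn2 kidneys, 26.3, 28.6 and 42.7 CPM in the others and 0.321, 0.671 and 3.57 CPM in tumors, with no overlap between the 3 groups. Slco4a1, an organic anion transporter, was 102, 37.7 and 51 CPM, then 17.7, 22.9 and 31 CPM, and 0.161, 0.495 and 3.25 CPM in the same order. Hpcal4, Myo3b, Dab1 and Lpo completed the 6 largest, each under 1 CPM in every tumor.

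HIF targets rose in tumors, and 24 of these rises were absent from the high-Lcn2 kidneys. Of 38 members tested, 30 were higher in tumors than in the high-Lcn2 kidneys and 0 lower, where 9.5% of all genes were called higher. Their median log2 difference was 1.92, against 0.002 over all genes. The high-Lcn2 kidneys themselves had a median difference of 0.05 to the other kidneys, and 24 of the 31 rises over the other kidneys were absent from them, 4 shared and 1 opposite. The summed level of the list was 24100 to 32200 CPM in tumors, 8860 to 11300 CPM in the high-Lcn2 kidneys and 8810 to 10500 CPM in the others. Leaving out any 1 library kept between 29 and 31 members higher.

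The oxygen sensor Egln3, which hydroxylates HIF and is its own target, was 344, 428 and 801 CPM in tumors, 26.5, 18.9 and 18.5 CPM in kidneys 5, 7 and 8 and 19.4, 25.5 and 31.8 CPM in the others. It differed from the high-Lcn2 kidneys by log2 4.54 ± 0.339 (edgeR adjusted p 4.46e-09), and the kidney sets overlapped. Car9 (carbonic anhydrase IX, a membrane enzyme that acidifies the surroundings of hypoxic cells) was 107, 241 and 324 CPM in tumors, 0.423, 2.17 and 1.6 CPM in the high-Lcn2 kidneys and 2.26, 5.13 and 17.8 CPM in the others. It was the 1 opposite member, with a log2 difference of -2.56 between the kidney sets, and tumors exceeded the high-Lcn2 kidneys by log2 7.36 ± 0.912 (edgeR adjusted p 4.14e-06). Adm (adrenomedullin, a vasodilator peptide) was 118, 127 and 215 CPM in tumors and 13.8, 19.6 and 9.42 CPM in the high-Lcn2 kidneys, log2 3.42 ± 0.231 (edgeR adjusted p 1.25e-09). Ankrd37, whose promoter window is printed above, was 37.3, 69.7 and 80 CPM in tumors and 0.634, 0.6 and 1.18 CPM in the high-Lcn2 kidneys.

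Among the HIF targets of glycolysis, Slc16a3 (Mct4, the lactate exporter) was 371, 433 and 473 CPM in tumors, 6.76, 6.3 and 2.99 CPM in kidneys 5, 7 and 8 and 1.97, 3.52 and 8.37 CPM in the others, a log2 difference of 6.46 ± 0.478 to the high-Lcn2 kidneys (edgeR adjusted p 4.02e-09). Pfkp, the platelet type of phosphofructokinase, was 1100, 1350 and 1660 CPM in tumors and 89.3, 123 and 63.1 CPM in the high-Lcn2 kidneys, log2 4.01 ± 0.291 (edgeR adjusted p 3.17e-09). Ldha, the lactate dehydrogenase subunit, was 2080, 2620 and 3090 CPM in tumors and 621, 902 and 596 CPM there, log2 2.00 ± 0.282 (edgeR adjusted p 1.81e-05). In these 3 genes the high-Lcn2 kidneys overlapped the other kidneys. Tpi1 (triosephosphate isomerase) was 1220, 1910 and 2190 CPM in tumors, and its 329, 575 and 391 CPM in the high-Lcn2 kidneys lay below the 605 to 878 CPM of the others.

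Hk2 and Slc2a1 were among the 4 shared members. Hk2 (hexokinase 2) was 12.8, 14.1 and 4.74 CPM in kidneys 5, 7 and 8 and 1.17, 4.47 and 8.86 CPM in the others, and tumors at 89.6, 200 and 350 CPM were still higher by log2 4.35 ± 0.563 (edgeR adjusted p 6.84e-06). Slc2a1 (Glut1, the glucose importer) was 245, 165 and 110 CPM in the high-Lcn2 kidneys and 109, 171 and 287 CPM in tumors, ranges that overlapped, against 51.3, 88.8 and 112 CPM in the others. Its difference between tumors and high-Lcn2 kidneys was log2 0.20 (edgeR adjusted p 0.624), and without kidney 8 it was -0.05.

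**Figure D3:**
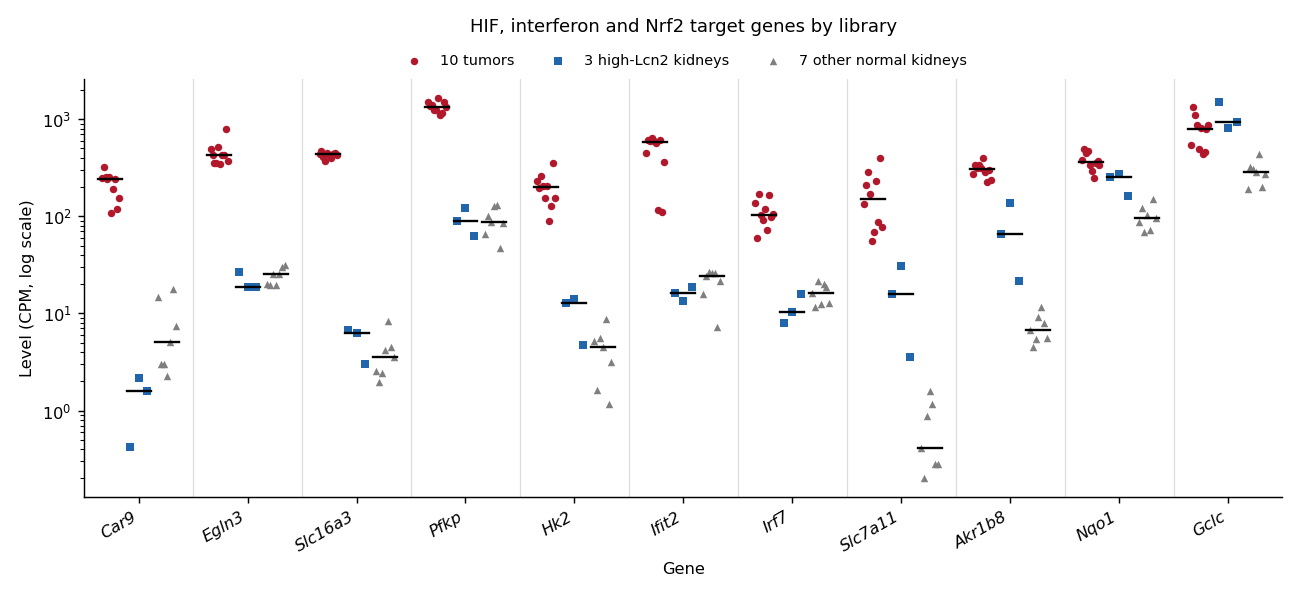
Level of 5 HIF targets (Car9, Egln3, Slc16a3, Pfkp, Hk2), 2 interferon genes (Ifit2, Irf7) and 4 Nrf2 targets (Slc7a11, Akr1b8, Nqo1, Gclc) in each library (CPM, log scale), with 1 point per library and a bar at each group's median; levels are to be compared within a gene. In the HIF and interferon genes all 10 tumors lie above all 3 high-Lcn2 kidneys, which sit with or below the other normal kidneys except for Hk2, while the Nrf2 targets step up from other kidneys to high-Lcn2 kidneys, and Gclc is as high there as in tumors.

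Interferon response genes rose in tumors, and none was 2-fold higher in the high-Lcn2 kidneys than in the others. Of 16 members 14 were higher in tumors than in the high-Lcn2 kidneys and 0 lower, with a median log2 difference of 2.49, where 9.5% of all genes were called higher. Without normal kidney 7 there were 11, and without tumor 7 there were 16. Against the other kidneys 13 rose, of which 10 were absent from and 2 opposite in the high-Lcn2 kidneys, whose own median difference was -0.64. The summed level was 428 CPM in tumor 7 and up to 1570 CPM in tumors, 99.5 to 166 CPM in the high-Lcn2 kidneys and 143 to 271 CPM in the others.

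Ifit2, an RNA-binding antiviral protein, was 110, 583 and 638 CPM in tumors and 16.1, 13.3 and 18.6 CPM in kidneys 5, 7 and 8, log2 5.04 ± 0.618 (edgeR adjusted p 3.7e-06). Irf7, the transcription factor that amplifies type I interferon, was 59.4, 104 and 170 CPM in tumors and 7.92, 10.3 and 15.9 CPM there, log2 3.45 ± 0.393 (edgeR adjusted p 1.42e-06). Bst2 (tetherin) was 74.7, 127 and 267 CPM in tumors and 11, 16.9 and 12.6 CPM there, below all of the other kidneys at 18.3, 21 and 35.2 CPM. The 2 opposite members were Oas1a and Ifit3. Oas1a, a sensor of double-stranded RNA, was 13.7, 19.3 and 37.4 CPM in tumors, 1, 1.16 and 2.99 CPM in the high-Lcn2 kidneys and 2.58, 3.67 and 4.98 CPM in the others. Ifit3 was 21.7, 73.3 and 139 CPM in tumors, 8.4, 6.22 and 15.2 CPM in the high-Lcn2 kidneys and 18, 21.7 and 33.8 CPM in the others, so that every high-Lcn2 kidney was below every other kidney. Cd74, the invariant chain of MHC class II and a member of the macrophage list, had the same pattern at 192, 442 and 636 CPM, then 76.6, 35.9 and 80 CPM, and 142, 269 and 315 CPM.

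Nrf2 targets were raised in tumors and in part also in the high-Lcn2 kidneys. Of 31 members 11 were higher in tumors than in the high-Lcn2 kidneys and 0 lower, whereas 24 were higher than in the other kidneys. All genes gave 9.5% and 13.5% for these rises, and 8.81% were at least 2-fold higher in the high-Lcn2 kidneys than in the others. The high-Lcn2 kidneys were at least 2-fold above the other kidneys in 14 members, and 11 of the 24 tumor rises were shared, 7 absent and 1 opposite. The medians on the log2 scale were 0.82 to the high-Lcn2 kidneys and 1.55 to the others. The summed level was 21200 to 28900 CPM in tumors and 19400 to 25100 CPM in the high-Lcn2 kidneys, which overlapped, and 9220 to 17100 CPM in the others, the highest being kidney 9. The count of 11 was 9 without normal kidney 8, 14 without normal kidney 7 and 16 without tumor 7 and normal kidneys 7 and 9.

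Gclc, the catalytic subunit of glutathione synthesis, was 1490, 809 and 945 CPM in kidneys 5, 7 and 8 and 436, 796 and 1340 CPM in tumors, against 193, 286 and 434 CPM in the others. Srxn1 (sulfiredoxin) was 611, 973 and 228 CPM in the high-Lcn2 kidneys and 374, 614 and 926 CPM in tumors, against 75.2, 101 and 114 CPM in the others. Neither passed the test between tumors and high-Lcn2 kidneys (log2 -0.34 and 0.14, edgeR adjusted p 0.428 and 0.762). Nqo1, the quinone reductase used as the standard readout of Nrf2, was 249, 365 and 494 CPM in tumors, 253, 270 and 162 CPM in the high-Lcn2 kidneys and 69.3, 95.2 and 151 CPM in the others. Its step between tumors and high-Lcn2 kidneys was log2 0.85 ± 0.301 (edgeR adjusted p 0.0376), under the 2-fold limit, and it lost the p limit without kidney 8 (adjusted p 0.185), without kidney 5 (adjusted p 0.0855) and without any 1 of tumors 1 to 4.

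Other Nrf2 targets were raised in the high-Lcn2 kidneys and again in tumors. Slc7a11 (xCT, the cystine importer) was 0.204, 0.414 and 1.58 CPM in the other kidneys, 15.9, 30.8 and 3.55 CPM in kidneys 5, 7 and 8 and 55.1, 152 and 403 CPM in tumors, with no overlap. Tumors exceeded the high-Lcn2 kidneys by log2 3.44 ± 0.708 (edgeR adjusted p 0.000957). Akr1b8, an aldo-keto reductase, was 4.48, 6.68 and 11.6 CPM, then 65.2, 136 and 21.8 CPM, then 226, 308 and 401 CPM in the same order, and log2 2.16 ± 0.415 separated tumors from the high-Lcn2 kidneys (edgeR adjusted p 0.000522). The glutathione transferase Gstm1 belonged to the absent group at 912, 2500 and 3070 CPM in tumors and 848, 664 and 599 CPM in the high-Lcn2 kidneys, with 365, 457 and 653 CPM in the others.

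Lysosomal genes rose in tumors, partly with and partly without the high-Lcn2 kidneys. Of 28 members 17 were higher and 1 lower in tumors than in the high-Lcn2 kidneys, where all genes gave 9.5% and 10.3%. Of 15 rises over the other kidneys, where all genes gave 13.5%, 8 were absent and 6 shared. Hexa, a subunit of hexosaminidase, was 376, 770 and 977 CPM in tumors, 32.2, 54.8 and 38.6 CPM in kidneys 5, 7 and 8 and 60.1, 74.1 and 82.1 CPM in the others, log2 4.28 ± 0.319 to the high-Lcn2 kidneys (edgeR adjusted p 4.35e-09). Every high-Lcn2 kidney was thus below every other kidney and every tumor above. Cathepsins were found in both classes, Ctsb, Ctsd and Ctsl as shared and Ctsa and Ctsz as absent rises. Ctsb was 6010, 7860 and 12400 CPM in tumors, 1690, 2540 and 1570 CPM in the high-Lcn2 kidneys and 802, 897 and 1110 CPM in the others. Ctsd was 2220, 2880 and 3410 CPM in tumors, 1950, 2090 and 1280 CPM in the high-Lcn2 kidneys and 471, 499 and 682 CPM in the others, a step of log2 0.81 that was under 2-fold. Gpnmb, a glycoprotein under the control of TFE factors, was 153, 552 and 1460 CPM in tumors and 4.28, 18.7 and 4.74 CPM in the high-Lcn2 kidneys. The 1 lower member was Atp6v0d2, a proton pump subunit of intercalated cells, at 0.321, 0.906 and 7.34 CPM in tumors and 54.4, 39.8 and 32 CPM in the high-Lcn2 kidneys.

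Cell division genes did not separate tumors from the high-Lcn2 kidneys as a set, and normal kidney 7 decided this. Of 35 members 24 were higher in tumors than in the other kidneys, and 22 of these were shared. Against the high-Lcn2 kidneys 1 was higher, E2f1, and 0 were lower. Over all genes, 13.5% were called higher than in the other kidneys and 9.5% higher than in the high-Lcn2 kidneys. Mki67, the proliferation antigen, was 4.04, 25.4 and 65 CPM in tumors, 3.49 and 2.16 CPM in kidneys 5 and 8 and 52.7 CPM in kidney 7. Top2a, the replication topoisomerase, was 1.95 and 1.54 CPM in kidneys 5 and 8 and 40.1 CPM in kidney 7. The summed level was 216, 250 and 820 CPM in the high-Lcn2 kidneys with kidney 7 the highest, 197 to 909 CPM in tumors and 193 to 288 CPM in the others. Without kidney 7, 18 members were higher in tumors, Mki67 by log2 3.26 (edgeR adjusted p 0.0147) and Top2a by log2 3.55 (edgeR adjusted p 0.0123). E2f1, the transcription factor of S phase entry, was 23.8, 41.1 and 60 CPM in tumors and 2.17, 10.6 and 2.83 CPM in the high-Lcn2 kidneys, log2 3.08 (edgeR adjusted p 2.37e-05).

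**Figure D4:**
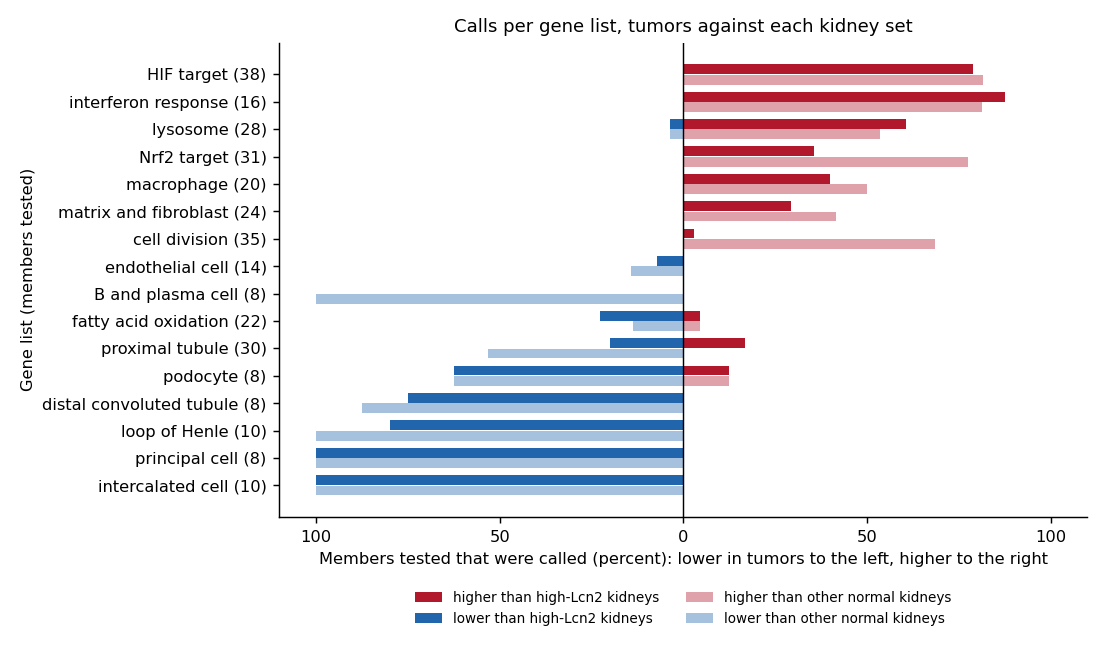
Percent of the tested members of 16 gene lists that were called higher (right, red) or lower (left, blue) in tumors, against the 3 high-Lcn2 kidneys (dark bars) and against the 7 other normal kidneys (pale bars), with the number tested in brackets. HIF (30 and 31 of 38), interferon (14 and 13 of 16) and lysosome genes (17 and 15 of 28) are called higher against both sets, 1 of 35 cell division and 11 of 31 Nrf2 genes are called higher against the high-Lcn2 kidneys and 24 of each against the others, and proximal tubule genes are called higher in some members only against the high-Lcn2 kidneys. Over all genes, 9.5% are called higher and 10.3% lower against the high-Lcn2 kidneys, and 13.5% and 16.5% against the others.

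Proximal tubule genes were low in the high-Lcn2 kidneys as well as in tumors. Of 30 members 22 were at least 2-fold lower in the high-Lcn2 kidneys than in the others (12.9% of all genes), with a median log2 difference of -1.54. Tumors were lower than the other kidneys in 16 (16.5% of all genes) and higher in 0, and 14 of the 16 falls were shared. Against the high-Lcn2 kidneys 5 were higher and 6 lower, with a median of 0.1, where all genes gave 9.5% and 10.3%. The summed level was 3560 to 16000 CPM in tumors with tumor 7 the lowest, 7370 to 14000 CPM in the high-Lcn2 kidneys and 21500 to 34000 CPM in the others.

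Lrp2 (megalin, the endocytic receptor of the brush border) was 711, 405 and 749 CPM in kidneys 5, 7 and 8 and 496, 2740 and 4630 CPM in tumors, against 388, 2910 and 3650 CPM in the others, where kidney 9 was the lowest. Tumors were higher than the high-Lcn2 kidneys by log2 2.23 ± 0.559 (edgeR adjusted p 0.00475) and did not pass the test against the others (log2 0.21, adjusted p 0.653). Slc3a1, the heavy chain of the cystine transporter, was 161, 131 and 194 CPM in the high-Lcn2 kidneys, 188, 590 and 746 CPM in tumors and 425, 585 and 726 CPM in the others. With Fbp1, Slc7a7 and Ggt1 these were the 5 members called higher in tumors, each of them was at least 2-fold lower in the high-Lcn2 kidneys than in the others, and in each of the 5 tumor 7 was the lowest tumor. Slc34a1, the phosphate transporter of the proximal tubule, was 675, 143 and 326 CPM in the high-Lcn2 kidneys, 143, 888 and 1750 CPM in tumors and 1410, 3340 and 3740 CPM in the others, so both lay largely below the others, and the difference between them did not pass the test (log2 1.39, edgeR adjusted p 0.11). Without tumor 7 it did (log2 1.52, adjusted p 0.0355).

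Some proximal tubule genes were lower in tumors than in the high-Lcn2 kidneys. Slc5a2 (Sglt2, the glucose transporter of the first segment) was 194, 52 and 157 CPM in kidneys 5, 7 and 8 and 1.38, 9.26 and 64.9 CPM in tumors, against 134, 308 and 421 CPM in the others, log2 -2.68 (edgeR adjusted p 0.00363). Slc22a8 (Oat3, the organic anion transporter) was 190, 53 and 532 CPM and 2.59, 26.1 and 70.6 CPM, log2 -2.94 (edgeR adjusted p 0.000986), and it lost the limit without kidney 8 (log2 -1.86, adjusted p 0.0509). The water channel Aqp1 was low in both, at 205, 134 and 507 CPM in the high-Lcn2 kidneys and 83.9, 135 and 292 CPM in tumors, against 936, 1160 and 1600 CPM in the others. Kap and Slc7a13, which differ between the sexes, were also lower in tumors, and sex was not part of the fit.

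Many genes of the distal nephron were nearly gone in tumors and present in the high-Lcn2 kidneys. Lower in tumors than in the high-Lcn2 kidneys, where 10.3% of all genes were called lower, were 8 of 10 loop of Henle genes, 6 of 8 distal convoluted tubule genes, 8 of 8 principal cell genes and 10 of 10 intercalated cell genes, and none was higher. Without normal kidney 5 the distal convoluted tubule count was 4. The high-Lcn2 kidneys were themselves at least 2-fold below the others in many of these genes, and the falls of tumors against the other kidneys were shared in 7 of 10, 4 of 7, 4 of 8 and 7 of 10 genes in the same order. The summed loop of Henle level was 37.2 to 186 CPM in tumors, 3910 to 7940 CPM in the high-Lcn2 kidneys and 8010 to 9320 CPM in the others. For the distal convoluted tubule the sums were 78.6 to 138, 592 to 1580 and 512 to 2980 CPM in the same order, with kidney 9 at 512 CPM. That list was thus lower in tumors but not near 0.

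Umod, given above, overlapped between the kidney sets, with 3910, 4610 and 5910 CPM in the other kidneys. Slc12a1 (Nkcc2, the loop transporter) by contrast was 113, 162 and 201 CPM in kidneys 5, 7 and 8, 602, 1520 and 1940 CPM in the others and 0, 0.176 and 1.36 CPM in tumors. Egf, made by the loop and distal tubule, was 145, 22.9 and 105 CPM, 356, 1500 and 1700 CPM and 0.654, 1.2 and 2.25 CPM in the same order. The 3 groups did not overlap in either gene, and tumors differed from the high-Lcn2 kidneys by log2 -8.52 and -5.91 (edgeR adjusted p 1.79e-09 for each). Slc12a3 (the thiazide-sensitive transporter) was 1040, 330 and 850 CPM in the high-Lcn2 kidneys and 0.13, 0.557 and 6.82 CPM in tumors. In the collecting duct, Aqp2 was 189, 85.6 and 169 CPM in the high-Lcn2 kidneys, 256, 376 and 698 CPM in the others and at most 0.329 CPM in tumors, log2 -11.07 (edgeR adjusted p 4e-11). Atp6v1g3, a proton pump subunit of intercalated cells, was 56.3, 41.6 and 32.4 CPM in the high-Lcn2 kidneys, 35.3, 53.1 and 81.2 CPM in the others and at most 1.6 CPM in tumors.

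Podocyte genes were lower in tumors, and none differed 2-fold between the kidney sets. Of 8 members 5 were lower and 1 higher in tumors than in the high-Lcn2 kidneys, where all genes gave 10.3% and 9.5%. The 5 falls were all absent from the high-Lcn2 kidneys. The summed level of the list was 396 to 490 CPM in tumors, 753 to 837 CPM in the high-Lcn2 kidneys and 134 to 1350 CPM in the others, with kidney 9 the lowest.

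**Figure D5:**
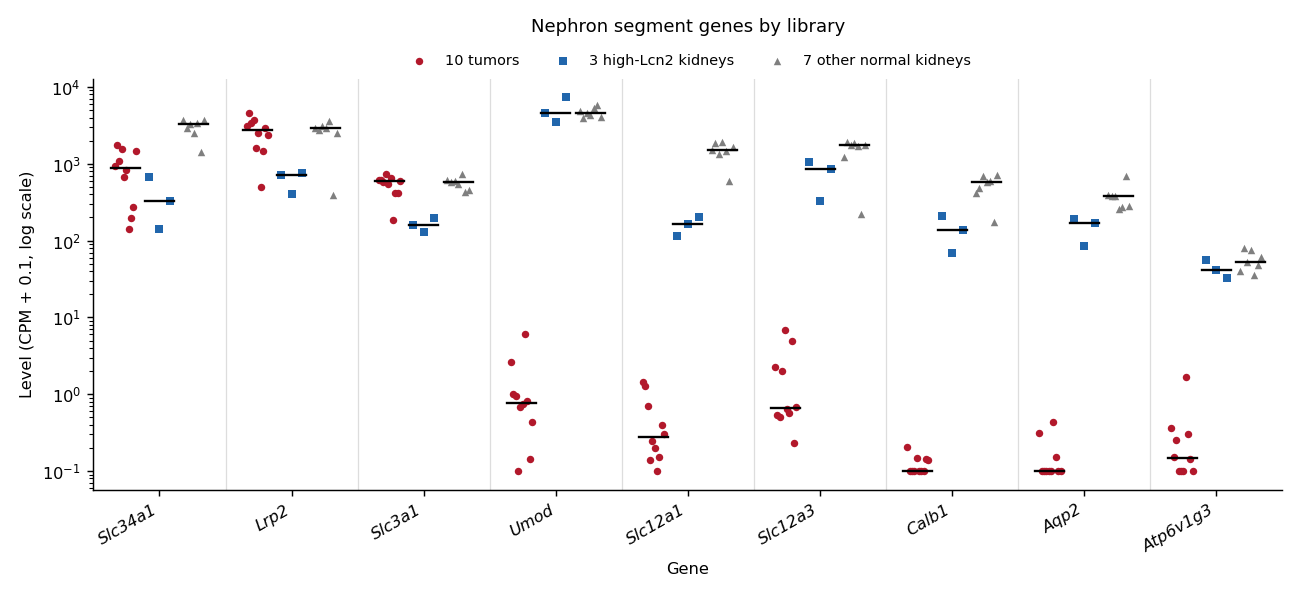
Level of 9 nephron genes in each library (CPM + 0.1, log scale), from the proximal tubule (Slc34a1, Lrp2, Slc3a1) over the loop of Henle (Umod, Slc12a1), distal convoluted tubule (Slc12a3, Calb1) to the principal cell (Aqp2) and intercalated cell (Atp6v1g3) of the collecting duct, with 1 point per library and a bar at each group's median; levels are to be compared within a gene. Distal genes are near 0 in tumors and present in the high-Lcn2 kidneys, whereas Lrp2 and Slc3a1 are lowest in the high-Lcn2 kidneys.

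A few fatty acid oxidation genes were higher in the high-Lcn2 kidneys than in tumors and in the other kidneys. Of 22 members 5 were lower and 1 higher in tumors than in the high-Lcn2 kidneys, and 4 were at least 2-fold higher in the high-Lcn2 kidneys than in the others, where all genes gave 10.3%, 9.5% and 8.81%. Ehhadh, the peroxisomal bifunctional enzyme, was 2880, 2660 and 3180 CPM in kidneys 5, 7 and 8, 470, 901 and 1230 CPM in the others and 145, 215 and 1830 CPM in tumors. Crot, the carnitine octanoyltransferase, had the same order, with at most 808 CPM in the high-Lcn2 kidneys, 271 CPM in the others and 358 CPM in tumors. Both were thus raised in the high-Lcn2 kidneys, and tumors were lower than those by log2 -2.42 and -1.39 (edgeR adjusted p 0.00414 and 0.000466) without differing from the others by the test. Tumors were not alike in Ehhadh. It was 1830, 680 and 948 CPM in tumors 5, 7 and 8, which carry the numbers of the high-Lcn2 kidneys, and at most 239 CPM in the other tumors. Acaa1b, a peroxisomal thiolase, was 749, 1440 and 968 CPM in the high-Lcn2 kidneys and 42.1, 64 and 173 CPM in tumors, below every kidney of either set. Tumors 5, 7 and 8 again had the most, at 173, 170 and 158 CPM, against at most 73.5 CPM in the other tumors. The count of lower members was 8 without tumor 8 or normal kidney 7, 9 without tumor 5 and 9 with library totals in place of TMM factors.

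Genes of other cell types were read from marker lists. Of all genes tested, 9.5% were called higher and 10.3% lower in tumors than in the high-Lcn2 kidneys. Of 20 macrophage genes 8 were higher in tumors than in the high-Lcn2 kidneys and 0 lower, and this count was 4 without normal kidney 5. The summed macrophage level was 3030 to 5790 CPM in tumors, 941 to 1830 CPM in the high-Lcn2 kidneys and 1180 to 2580 CPM in the others. Apoe made up a large part of this sum in every set, so the sum largely follows 1 gene. It was 2110, 2950 and 3750 CPM in tumors, 1100, 450 and 1310 CPM in kidneys 5, 7 and 8 and 726, 1240 and 1770 CPM in the others. Cd68, a lysosomal glycoprotein of macrophages, was 69.7, 115 and 216 CPM in tumors, 15, 55.2 and 15.7 CPM in kidneys 5, 7 and 8 and 2.66, 4.19 and 8.45 CPM in the others. The list as a whole did not rise in the high-Lcn2 kidneys. Of its 20 genes 4 were at least 2-fold above the other kidneys and 4 below, where all genes gave 8.81% and 12.9%. The median log2 difference was -0.27. Of 7 neutrophil genes 1 was higher, and the summed level of 24.9 to 44.2 CPM in the high-Lcn2 kidneys lay above the 2.31 to 17.5 CPM of the others, while tumor 7 had 518 CPM and the other tumors at most 35.1 CPM. B and plasma cell genes were lower than in the other kidneys in 8 of 8 members for tumors and by at least 2-fold in 8 of 8 for the high-Lcn2 kidneys, and 0 were called between the latter and tumors. That count changed with single libraries, to 2 lower in tumors without tumor 7 and 1 higher without tumor 2. Tumor 7 summed to 405 CPM on this list, against a median of 25.5 CPM over tumors. All genes gave 16.5% for the tumor falls and 12.9% for those of the high-Lcn2 kidneys. Of 17 T and NK cell genes 1 was higher and 2 lower, on a list that summed to at most 22.8 CPM in any library, and of 14 endothelial genes 1 was lower. The neutrophil, T and NK cell and endothelial counts were thus near the shares of all genes.

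Of 24 matrix and fibroblast genes 7 were higher in tumors than in the high-Lcn2 kidneys and 0 lower, but 10 were lower when tumor 7 was left out, and 4 were higher without normal kidney 8. Tumor 7 summed to 21000 CPM on this list, the other tumors to between 3100 and 6410 CPM, the high-Lcn2 kidneys to between 2380 and 4950 CPM with kidney 7 the highest, and the others to between 949 and 2120 CPM. The members that rose without overlap included the collagen IV chain Col4a1, at 1250, 1650 and 2730 CPM in tumors, 678, 984 and 541 CPM in kidneys 5, 7 and 8 and 85.5, 307 and 420 CPM in the others. The collagen crosslinking enzyme Loxl2 was 164, 204 and 230 CPM in tumors and 13, 36 and 12.8 CPM in the high-Lcn2 kidneys, log2 3.42 ± 0.341 (edgeR adjusted p 2.6e-07). Of 5 urothelium genes, which would mark tissue of the renal pelvis, 0 were called, but 4 were lower in tumors without tumor 7 and 5 by limma-voom. Their sum was 0.325 to 139 CPM in tumors, where tumor 7 had the 139 CPM and the others at most 20.8 CPM, 15.4 to 44.6 CPM in the high-Lcn2 kidneys and 3.19 to 27.2 CPM in the others. The keratin Krt7, which is not on the urothelium list, was 205, 189 and 136 CPM in the high-Lcn2 kidneys, 131, 157 and 216 CPM in the others and 0.161, 0.769 and 53.6 CPM in tumors. Of 20 inflammatory signal genes 2 were higher and 3 lower in tumors than in the high-Lcn2 kidneys, shares near the 9.5% and 10.3% of all genes. The lower count was 5 without tumor 7 and 1 without normal kidney 1, 4, 5 or 7, and the higher count was 1 without kidney 7. Adipocyte and red blood cell genes had no calls, though 2 adipocyte genes were lower without tumor 7, and of 2 skeletal muscle genes tested 1 was higher. The part of such cells in the differences above was not tested.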

How the data were processed

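RNA of 10 tumors and 10 normal kidneys had been extracted from flash-frozen, pulverized tissue, and poly(A) libraries were sequenced by a company. The authors deposited raw counts per gene without normalization, on build mm10. The aligner, the counting tool and the use of strand are not given in the sources used here, so overlapping, antisense and near-identical genes carry uncertain counts. The table held 54532 genes, of which 22149 had no count, and 0 rows without a gene name.

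CPM values are counts divided by the column total. Normal kidneys with Lcn2 above 1000 CPM formed 1 set (3 libraries) and the other 7 normal kidneys another. Limits of 500 CPM or the 3 highest by Havcr1 chose the same kidneys. All 20 libraries entered 1 fit of edgeR 4.0.16 (R 4.3.3) with TMM factors, the low-count filter at a minimum of 10 counts, the quasi-likelihood test and no covariate, and 17518 genes were tested. P-values were adjusted by Benjamini-Hochberg over all of them. A call needed an adjusted p under 0.05 and a fold over 2. No label says that kidneys or tumors are other than 1 sample of a mouse each, so p-values measure the spread between these samples. Tumors and normal kidneys came from the same mice, and the fit had no term for the mouse. No pair of libraries of a group agreed within sampling noise. Differences between high-Lcn2 and other kidneys are sizes without a test, and Lcn2 and the injury list were not tested, because Lcn2 chose the kidneys. A fold against a group at 0 is a bound from 3 counts per library, and one against 1 to 3 counts has an exact 95% Poisson interval for counting error only.

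Genes named were the 12 largest changes in each direction between tumors and high-Lcn2 kidneys without overlap and with a mean of 5 CPM in a group, the 6 largest per class, members of gene lists written by hand and the 4 targeted genes. A few genes that the rule covers are not reported here. The members and lists were chosen with earlier results of these data known. The steps were tested on simulated data. Alternatives were library totals or DESeq2 size factors for TMM, no filter, DESeq2 1.42.0, limma-voom (limma 3.58.1), the 13 libraries alone, a block for the replicate number, a fold of 1.5 and leaving out each library. Chosen after seeing the data were genes at 1 CPM or more in a kidney set and the fit without tumor 7 and normal kidneys 7 and 9. Promoters came from RefSeq (GRCm38.p6).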

Additional observations from a re-analysis of the deposited data

Results flagged for a closer look

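Named genes formed 210 combinations with the tumors or the other 7 normal kidneys. Combinations without any count, such as Gpx6, Spink8, Gp2 and Lpo in tumors, are among the 210 but could not be examined. In 43 a library stood far from the rest of its set on the log2 CPM scale, where chance gives about 1 in 20. The high-Lcn2 kidneys, at 3 libraries, are too few for this test. The libraries share tissue and depth, so the 43 are not independent.

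Among tumors, tumor 7 stood lowest for Slc7a15 (2.40), Mmp27 (3.49), Aqp8 (4.14), Gstm3 (4.75), Keap1 (5.85), Nlrp10 (7.33), Slc3a1 (7.46), Hexa (8.46), Lrp2 (8.86) and Gstm1 (9.74). It stood highest for the inflammatory chemokine Cxcl3 (7.27), for Cd44 (7.56) and, close to 0 in every tumor, for Irx1 (-1.15), Slc14a2 (-0.89), Hpcal4 (-0.58) and Atp6v1g3 (0.67). Tumor 7 was also the tumor with the most matrix and neutrophil transcripts. Tumor 6 was lowest for Clca4b (-1.95) and Popdc3 (4.57), tumor 3 for Nxf7 (1.00) and tumor 9 for Lgals3 (9.29), while tumor 4 was highest for Aqp1 (8.32) and tumor 10 for Slc7a13 (-1.86).

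Among the other normal kidneys, normal kidney 9 stood lowest for Dab1 (1.34), Tsc1 (4.20), Pbrm1 (4.28), Atp6v0d2 (4.37), Keap1 (5.14), Col4a1 (6.79), Slc12a3 (8.15), Egf (8.85) and Lrp2 (8.97). It stood highest for Ptgds (5.86), Irx1 (6.68), Gpx6 (7.52), Gstm1 (9.72), Aqp2 (9.81) and Ldha (10.13). Normal kidney 9, next below the Lcn2 limit, was thus low in Slc12a3 and Lrp2 and high in Aqp2. By list, it had the lowest distal convoluted tubule sum of its set (512 CPM) and the highest principal cell sum (981 CPM). Its intercalated cell sum was the lowest (255 CPM), and its proximal tubule sum of 29800 CPM lay near the median of 28200 CPM. Neither the cortical nor the collecting duct lists thus moved 1 way. Normal kidney 6 was highest for Clca4b (-1.90), Nkx6-2 (0.64) and Gpnmb (4.40), normal kidney 1 for Nxf7 (-1.40) and Clca4a (-2.24) and normal kidney 3 for H2-Q1 (-1.32). In kidney 6 these are 3 genes that tumors had at high levels.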

How the results depend on the processing

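The 3 high-Lcn2 kidneys limit every value, and the set was the same with a limit of 500 CPM or by the 3 highest Havcr1 values. With library totals as scaling the medians over all genes were -0.13 against the high-Lcn2 kidneys and -0.153 against the others, the calls were 1394 higher and 2032 lower, and no scaling or tool moved the share of higher calls by over 10 percentage points. Over all settings the calls against the high-Lcn2 kidneys were 1136 to 2370 higher and 937 to 2524 lower.

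The labels state that the normal regions came from the tumor-bearing mice, but not that equal numbers mark a mouse. Deviations of the same-numbered libraries correlated at -0.0992 to 0.23, and 4 of 10 tumors correlated best with their own number. With the kidneys as 1 group the correlations were -0.131 to 0.359 and 7 of 10 did. The sex marker was the same within all 10 numbers, which is a hint from the data and not the design. The normal kidneys with the most Lcn2 were 7, 5, 8 and 9. The tumors with the most were 7, 8, 9 and 5 (182, 35.1, 18.5 and 16.2 CPM), a further hint of this kind. Not every correlation exceeded 0.1 in either grouping of the kidneys, so the numbers were not taken as pairs in the main fit. With the replicate number as a block, 1136 genes were higher and 937 lower, and the absent falls numbered 482. Calls in the gene lists under the block were 7 higher and 1 lower for Nrf2 targets, 2 higher and 4 lower for the proximal tubule, 0 higher and 1 lower for fatty acid oxidation, 4 lower for the distal convoluted tubule, 12 higher for macrophages, 26 higher for HIF targets, 12 higher for interferon and 13 higher for lysosome genes. With a fold limit of 1.5 the shared and opposite rises were 1598 and 279, and the shared and opposite falls 2149 and 176. Counting only genes at 1 CPM or more in a kidney set, chosen after seeing the data, the opposite rises were 57. Without tumor 7 and normal kidneys 7 and 9, also chosen after seeing the data, the opposite rises were 226 and the opposite falls 121. Leaving out each library in turn gave 1274 to 1862 genes higher and 1444 to 2454 lower, 622 to 991 shared, 647 to 892 absent and 123 to 230 opposite rises, and 1139 to 1454 shared, 769 to 1357 absent and 57 to 109 opposite falls.

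Of the values of tested genes 9 changed sign, and none of these had been called. These were Cxcl3 with DESeq2 (-0.23) and without tumor 7 (-0.15), Slc34a1 with the block (-0.12), Mki67 without normal kidney 5 (-0.07) or 8 (-0.11), Top2a without the same kidneys (-0.07 and -0.09), and Slc2a1 (-0.05) and Srxn1 (-0.26) without normal kidney 8. Leaving out each library in turn gave log2 differences of -0.15 to 6.27 for Cxcl3, -0.11 to 3.26 for Mki67, -0.09 to 3.55 for Top2a, -0.26 to 0.69 for Srxn1 and -0.05 to 0.52 for Slc2a1. Havcr1, given without a test, also turned from -0.87 to 0.03 with the block, 1.04 without normal kidney 7 and 0.92 without tumor 7 and normal kidneys 7 and 9. The adjusted p came under 0.05 in 23 of the values and rose over it in 22, among these Nqo1, Vhl and Ctsd, which were under 2-fold and so no calls, against 2842 that did neither. With limma-voom, which handles counts near 0 differently, Clca4b, Kap, Nkx6-2 and Slc7a13 missed the threshold (adjusted p 0.145, 0.0881, 0.0769 and 0.19). With the block Lrp2 (adjusted p 0.199) and Ehhadh (0.0773) missed it. The causes were not tested.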
